A study of Mus musculus with 4 samples.

Results

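This account covers 10 genes of blood vessel walls and of platelet-derived growth factor (PDGF) signalling, among 55385 genes measured by bulk RNA sequencing in 4TO7 mouse breast carcinoma cells. They are Mcam, Rgs5, Abcc9 and Cspg4, known from pericytes, the receptors Pdgfra and Pdgfrb, the ligands Pdgfa and Pdgfb, and the endothelial genes Vwf and Pecam1. The genes were picked by name with the difference between resistant and control libraries already known, so that difference is given for them as a description and supports nothing further. The resistant group holds 2 libraries of 4TO7 cells from resistant Balb/c tumors. The drug they resisted, anti-PD-L1, is an antibody against a ligand that restrains T cells. The control group holds 2 libraries of the same cells from control tumors of the same strain. One label of all 4 samples reads untreated, whereas their protocol names anti-PD-L1 in vivo. The labels therefore conflict for both groups, and what the control tumors received is not resolved. Tumors were digested with enzymes and cells were collected in medium before RNA was taken, with no sorting step named. The design calls the 2 libraries of a group biological replicates but gives no animals, so p-values reflect only the spread between these libraries.

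Pericytes and smooth muscle cells, together called mural cells, wrap the endothelium of blood vessels. Endothelial cells release PDGF-B, which recruits pericytes through the receptor encoded by Pdgfrb, whereas PDGF-A acts mainly through Pdgfra, a receptor of fibroblasts and other mesenchymal cells. Several of these genes are also active in tumor cells: Mcam was first described in melanoma. Pericytes are usually recognised by Rgs5, Kcnj8, Higd1b and Notch3 together, and endothelium by Cdh5, Tek, Cldn5 and Emcn.

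The DNA just before the outermost annotated start is shown for the 4 pericyte genes, because their values below differ from gene to gene. The runs are 60 bases, 5′ to 3′ on the gene's strand, from RefSeq promoter sequence on GRCm38, and end at the base before the first start in GENCODE. The promoter table held 6 of the 10 genes, and 5 had such a window. Capitals mark an E-box (CANNTG) or a GC box, whose letters are GGGCGG on either strand. The TATA box, TATAAA on either strand, and the CArG box bound by serum response factor were searched as well.
Mcam (chr9:44134409-44134468, plus strand): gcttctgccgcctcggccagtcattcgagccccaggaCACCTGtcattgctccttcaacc
Rgs5 (chr1:169655441-169655500, plus strand): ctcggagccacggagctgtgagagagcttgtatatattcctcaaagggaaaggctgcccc
Abcc9 (chr6:142702316-142702375, minus strand): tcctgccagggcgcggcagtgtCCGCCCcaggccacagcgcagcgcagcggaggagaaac
Cspg4 (chr9:56864973-56865032, plus strand): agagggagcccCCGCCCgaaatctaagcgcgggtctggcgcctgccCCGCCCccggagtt
Mcam held an E-box, as did 20.2% of 16451 windows of mouse genes, not all of which reach the first start in GENCODE. Abcc9 and Cspg4 held GC boxes, found in 24.1% of windows. The Rgs5 window held none of the searched motifs. TATA boxes stood in 4.12% and CArG boxes in 0.316% of windows. A match describes letters only and shows no binding.

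The libraries held 45666470 to 49592054 reads counted in genes. Control libraries differed from each other more than resistant ones did, with a standard deviation of the log2 difference across 14238 tested genes of 0.45 against 0.31. The cells carried the keratins Krt8 and Krt18 and the mesenchymal filament Vim in every library. Ptprc, the leukocyte antigen CD45, stood at 0 to 2.15 normalized counts, which are reads divided by a scaling factor per library.

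4 of the 10 genes were called higher in resistant cells, namely Vwf, Mcam, Pdgfrb and Pdgfb, and the others were not called. A call means an adjusted p under 0.05 (limma, Benjamini-Hochberg over all tested genes). Among all tested genes 5.32% were called higher and 4.73% lower. 9 of the 10 genes reached a mean of 10 normalized counts and were tested, and Cspg4 did not. With genes below that level included in the fit, Mcam was called and the calls of Vwf, Pdgfrb and Pdgfb ended. In limma 0 of the 9 were called lower, 1 of them (Abcc9) had a lower value at an unadjusted p under 0.05, and limma voom on the recovered reads also called 0 lower. The median log2 difference of the 9 was 0.12, beside 0.0023 for all tested genes. Both resistant libraries lay above both controls for 5 of the 10 genes and below them for 2, and the groups overlapped for 3. Without Cspg4, which was not tested, 4 of the 9 were separated upward and 2 downward. Among all tested genes 28.4% were separated upward and 28.3% downward.

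**Figure D1:**
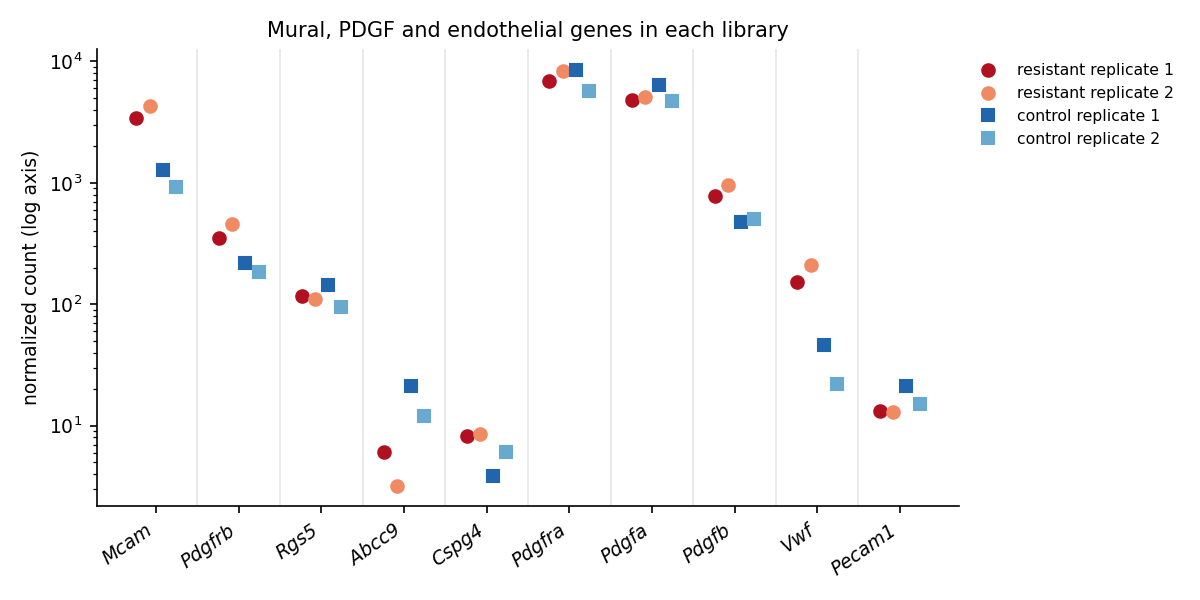
Normalized counts (vertical log axis) of the 10 genes in each of the 4 libraries, 1 point per library. Mcam, Pdgfrb, Pdgfb and Vwf have both resistant points (circles) above both control points (squares), whereas Rgs5, Pdgfra and Pdgfa have overlapping groups.

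Mcam, an adhesion receptor of mural cells and melanoma that binds laminin, had the clearest difference of the pericyte genes (ENSMUSG00000032135.15, chromosome 9, 44134469 to 44142727, GRCm38). It had 3391 and 4274 normalized counts in resistant replicates 1 and 2, and 1274 and 918 in control replicates 1 and 2. Both resistant libraries were high and the groups were far apart. This gave a log2 difference of 1.82 ± 0.18 (SE), or 3.50-fold between the group means. It was called in each fit that left out 1 library, with values from 1.58 to 2.05. Its exons share 17 bases with an antisense transcript, Gm10687, which had 2.88 to 11.8 normalized counts.

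Pdgfrb, the receptor through which pericytes are recruited, was also higher (ENSMUSG00000024620.11, chromosome 18, 61045150 to 61085061). It had 352 and 458 normalized counts in resistant and 218 and 185 in control libraries, so the groups were apart, but by less than for Mcam. Its log2 difference was 1.00 ± 0.20, or 2.01-fold. It was not called without resistant replicate 1 (1.19) or without resistant replicate 2 (0.81).

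Rgs5, a regulator of G protein signalling and the usual marker of pericytes, did not differ beyond its spread (ENSMUSG00000026678.10, chromosome 1, 169655501 to 169695813). It had 116 and 112 normalized counts in resistant and 145 and 95.8 in control libraries. Both resistant libraries lay between the 2 controls. The log2 difference was -0.05, with a 95% interval from -0.67 to 0.57, so changes of either sign up to about that size are not excluded. Its sign turned without control replicate 1 (0.25).

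Abcc9 and Cspg4 were near the limit of measurement. Abcc9 encodes a regulatory subunit of the potassium channel that senses ATP (ENSMUSG00000030249.15, chromosome 6, 142587862 to 142702315). It had 6.11 and 3.22 normalized counts in resistant and 21.1 and 12.1 in control libraries, so both resistant libraries were low. These are 9 reads against 34, a ratio of 0.281 (95% exact interval 0.119 to 0.599, counting error only). The log2 difference of -1.64 ± 0.53 was not called, but it was called without control replicate 2, at -2.01. With a pseudocount of 10 it was -0.85. Cspg4, the NG2 proteoglycan of pericytes (ENSMUSG00000032911.6, chromosome 9, 56865033 to 56899870), had 8.15 and 8.58 normalized counts in resistant and 3.84 and 6.05 in control libraries. Its 16 against 10 reads gave a ratio of 1.70 (95% exact interval 0.725 to 4.19), so a difference was not detectable at this depth.

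The ratios of the pericyte genes to each other within a library differed between the groups. Mcam counts were 29.2 and 38.3 times those of Rgs5 in resistant libraries, and 8.78 and 9.58 times in controls. Pdgfrb stood at 3.03 and 4.11 times Rgs5 in resistant and at 1.50 and 1.93 times in control libraries. Mcam counts were 9.65 and 9.33 times those of Pdgfrb in resistant libraries and 5.84 and 4.97 times in controls. The ratio of Abcc9 to Rgs5 went the other way, at 0.0526 and 0.0288 in resistant and 0.146 and 0.126 in control libraries. In each of these ratios the groups did not overlap, but the share of all gene pairs that do so was not computed. The pairs were picked by name and restate the counts given above, so this is a description. Abcc9 had 9 reads in resistant and 34 in control libraries, so its ratio is imprecise. These ratios compare libraries for a given pair of genes and are not levels per length.

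**Figure D2:**
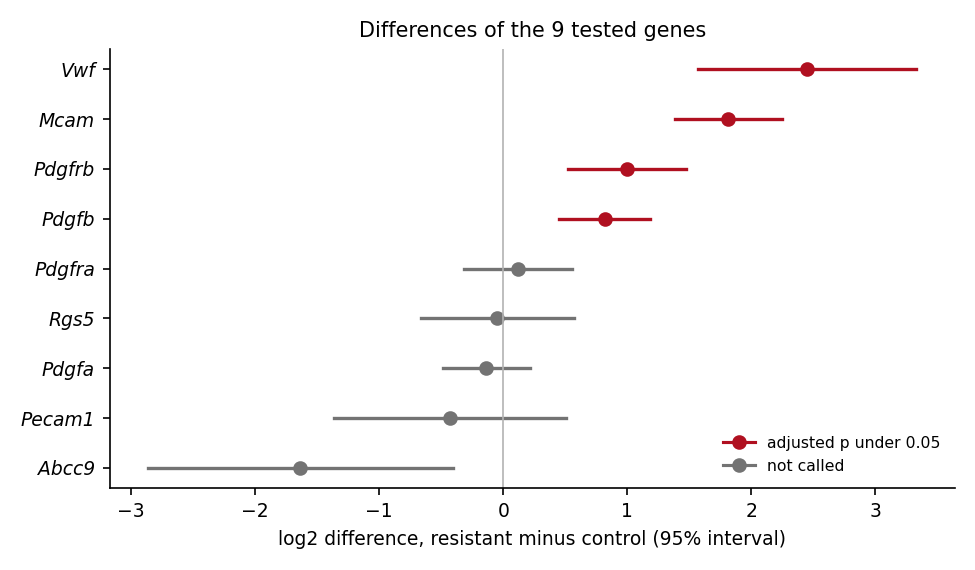
Log2 differences (resistant minus control, horizontal axis) of the 9 tested genes with 95% intervals from limma, each interval for 1 gene and not adjusted for the number of genes. Vwf, Mcam, Pdgfrb and Pdgfb lie right of 0, and Abcc9 has the lowest value at -1.64.

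Of the PDGF genes among the 10, Pdgfb and Pdgfrb were called higher, and Pdgfa and Pdgfra were not called. Pdgfb, the ligand that engages Pdgfrb (ENSMUSG00000000489.7, chromosome 15, 79995874 to 80014977), had 783 and 963 normalized counts in resistant and 477 and 506 in control libraries, with no overlap. The log2 difference was 0.82 ± 0.16, or 1.77-fold. It was not called without resistant replicate 1 (0.97) or without resistant replicate 2 (0.67).

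Pdgfa, the ligand that mainly engages Pdgfra (ENSMUSG00000025856.15, chromosome 5, 138976014 to 138997370), had 4840 and 5113 normalized counts in resistant and 6344 and 4707 in control libraries. The resistant libraries lay between the controls. The log2 difference was -0.14 ± 0.15, with a 95% interval from -0.49 to 0.21. Leaving out control replicate 1 turned it to 0.0797, and leaving out control replicate 2 gave -0.35, which was called lower. The antisense transcript 6330403L08Rik shares 813 exon bases with Pdgfa. It had 640 and 667 normalized counts in resistant and 1995 and 1616 in control libraries, and fell (log2 difference -1.46 ± 0.14, limma adjusted p = 0.00138). No source used here says if reads were counted by strand, so reads of this pair of genes may not be told apart.

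Pdgfra (ENSMUSG00000029231.15, chromosome 5, 75152292 to 75198215) had 6940 and 8313 normalized counts in resistant and 8504 and 5766 in control libraries. Both resistant libraries lay between the 2 controls. Its difference was 0.12 ± 0.19 on the log2 scale, with a 95% interval from -0.32 to 0.55. It was called higher without control replicate 1 (0.40), and its sign turned without control replicate 2 (-0.16) and without resistant replicate 2 (-0.01).

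Within a library, Pdgfb stood at 0.162 and 0.188 of the Pdgfa count in resistant and at 0.0753 and 0.108 in control libraries. Pdgfrb stood at 0.0507 and 0.0551 of Pdgfra in resistant and at 0.0256 and 0.0320 in control libraries. In both pairs the groups did not overlap, which again restates the counts given above.

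The other tested PDGF genes fell. Pdgfc, a ligand of Pdgfra that is cleaved before it acts, stood at 1029 ± 91.9 in resistant against 1889 ± 160 normalized counts in control cells (SD, n = 2, log2 difference -0.88 ± 0.13, limma adjusted p = 0.00837). Pdgfrl, which encodes a protein related to the receptors' outer part, fell from 1228 ± 230 to 566 ± 53.7 (-1.11 ± 0.17, limma adjusted p = 0.00883). Neither was called without resistant replicate 1 (-0.78 and -1.01). Pdgfd had reads in control replicate 2 alone, at 2.02 normalized counts. Of the 6 tested ligands and receptors, 2 were thus called higher and 2 lower, with a median of -0.01.

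**Figure D3:**
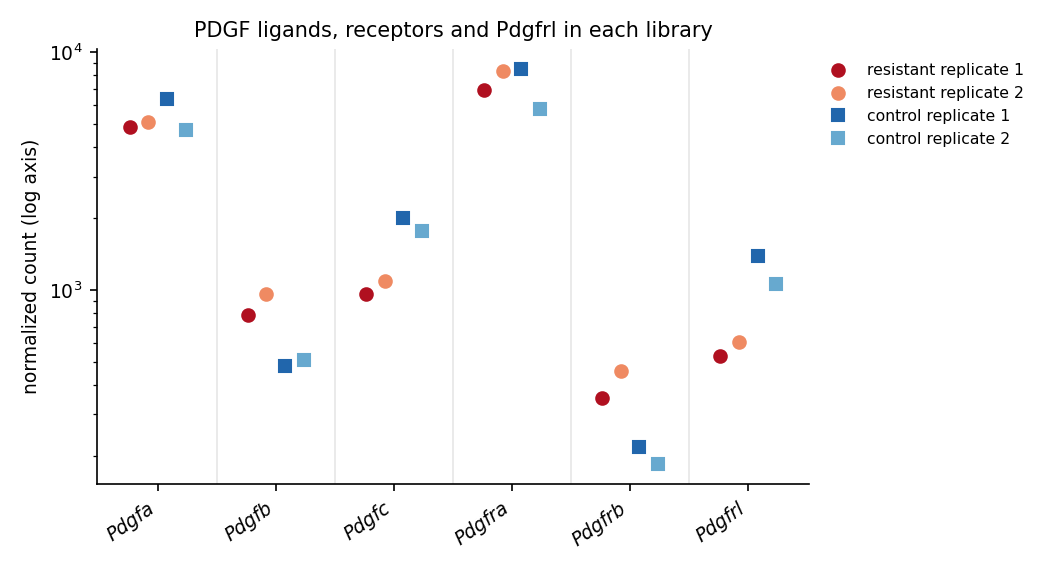
Normalized counts (vertical log axis) of 6 PDGF genes in each of the 4 libraries, 1 point per library. Pdgfb and Pdgfrb are higher in both resistant libraries, Pdgfc and Pdgfrl are lower in both, and Pdgfa and Pdgfra overlap.

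Genes downstream of the receptors were mostly not called, as were tested genes in general (5.32% called higher and 4.73% lower). Of 34 tested adaptors and enzymes that PDGF receptors engage, 2 fell and 32 did not pass, with a median of -0.03. The docking protein gene Gab1 fell from 659 ± 7.39 to 72.4 ± 15.9 normalized counts (-3.19 ± 0.21, limma adjusted p = 0.000415). The adaptor gene Shc1 fell (-0.71 ± 0.14) but was not called without resistant replicate 1 (-0.65) or 2 (-0.77). Among the most abundant genes, the kinase gene Akt1 (0.04 ± 0.20) and the phosphatase gene Ptpn11 (-0.37 ± 0.10) did not pass. Of 26 early response genes that growth factors induce, 2 rose, 1 fell and 23 did not pass, with a median of -0.01. The transcription factor gene Egr1 fell from 837 ± 326 to 136 ± 16.0 normalized counts (-2.56 ± 0.27, limma adjusted p = 0.00185). The transcription factor gene Myc rose (0.63 ± 0.14), but was not called without resistant replicate 1 (0.65) or 2 (0.60). The most abundant, Dusp6 (-0.10 ± 0.19), Dusp4 (0.17 ± 0.10) and Fosl1 (-0.08 ± 0.10), did not pass.

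Vwf had the largest difference of the 10 genes. It encodes von Willebrand factor, the clotting protein that endothelial cells store and that binds platelets (ENSMUSG00000001930.17, chromosome 6, 125546774 to 125686679). It had 153 and 211 normalized counts in resistant and 46.1 and 22.2 in control libraries, so both resistant libraries were high. This gave a log2 difference of 2.45 ± 0.38, or 5.33-fold between the group means. It was called in each fit that left out 1 library, with values from 1.94 (without control replicate 2) to 2.96 (without control replicate 1).

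Pecam1, the adhesion molecule CD31 of endothelial cells and platelets (ENSMUSG00000020717.19, chromosome 11, 106654217 to 106750628), stayed near the limit of measurement. It had 13.2 and 12.9 normalized counts in resistant and 21.1 and 15.1 in control libraries. Both resistant libraries were below both controls. Its 25 against 37 reads gave a ratio of 0.718 (95% exact interval 0.414 to 1.22), and the log2 difference of -0.43 ± 0.40 was not called. Leaving out control replicate 1 gave -0.20, and leaving out control replicate 2 gave -0.65. Vwf counts were 11.5 and 16.4 times those of Pecam1 in resistant and 2.18 and 1.47 times in control libraries.

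Per kilobase of exons, levels spanned more than 3 orders of magnitude, on a scale of normalized counts per kilobase. In resistant cells Pdgfa stood highest (1595), followed by Mcam (1144), Pdgfra (761), Pdgfb (210), Pdgfrb (73.9), Rgs5 (25.0), Vwf (11.3), Pecam1 (2.10), Cspg4 (0.701) and Abcc9 (0.557). Cspg4 and Abcc9 overlapped there between libraries. In control cells the order was Pdgfa (1772), Pdgfra (712), Mcam (327), Pdgfb (118), Pdgfrb (36.7), Rgs5 (26.5), Pecam1 (2.91), Vwf (2.13), Abcc9 (1.98) and Cspg4 (0.415). Pecam1, Vwf and Abcc9 overlapped there. Mcam passed Pdgfra between the groups, and Vwf passed Pecam1.

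Calls in the wider mural list were all upward, but most of its tested genes were not called. Of 30 pericyte and mural markers, 15 were tested, 5 rose, 0 fell and 10 did not pass, with a median of 0.40. Among all tested genes 5.32% were called higher and the median was 0.0023. Without the 10 genes of this account, 3 of 11 tested markers rose, with a median of 0.40. The list was chosen with earlier results known, so these counts are a description. Mcam and Pdgfrb are 2 of the 5. Des, the muscle filament desmin, had 397 ± 79.4 normalized counts against 94.0 ± 28.8 in controls (2.08 ± 0.27, limma adjusted p = 0.00447). Notch3, a receptor of mural cells, had 406 ± 53.9 against 211 ± 4.57 (0.93 ± 0.18, limma adjusted p = 0.021). Cnn1, the contractile protein calponin, had 21.5 ± 5.95 against 4.47 ± 2.24 (2.08 ± 0.51, limma adjusted p = 0.0433), and 1.12 with a pseudocount of 10. Without resistant replicate 1 Notch3 (1.07) and Cnn1 (2.35) were not called, nor were they without resistant replicate 2 (0.80 and 1.81). Either omission left 2 genes of the list called higher, and including low genes in the fit left 1. The most abundant genes of the list besides Mcam, the integrin gene Itga8 (0.03 ± 0.10), the myosin kinase gene Mylk (-0.07 ± 0.23) and the endothelin receptor gene Ednra (0.14 ± 0.21), did not pass.

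The defining pericyte markers were divided. Rgs5 had 95.8 to 145 normalized counts across the libraries, and Notch3, called higher as given above, had 208 to 444. Higd1b had no read in any library, and Kcnj8 had 2.15 normalized counts in resistant replicate 2 and none elsewhere. Heyl and Trpc6, which belong to the wider list only, also had no read. Smooth muscle actin, Acta2, had 38.7 and 62.2 normalized counts in resistant and 10.6 and 33.3 in control libraries and was not called (1.33 ± 0.54). Smooth muscle myosin, Myh11, had 3.22 to 29.2 normalized counts, highest in control replicate 2. 14 of the 30 genes were under 10 normalized counts in each library. The summed level of the list was 12369 and 14597 normalized counts in resistant and 11328 and 8666 in control libraries. It came mostly from Itga8, Mcam and Mylk.

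Of 30 endothelial markers, 11 were tested, 2 rose and 9 did not pass, with a median of 0.06. Without Vwf and Pecam1, 1 of 9 rose, beside 5.32% of all tested genes. Vwf was joined by Mmrn2, which encodes a matrix protein of vessels (163 ± 17.7 against 72.5 ± 18.4 normalized counts, 1.18 ± 0.26, limma adjusted p = 0.033). Mmrn2 was not called without resistant replicate 1 (1.29) or 2 (1.07). Cldn5 had no read in any library, and Cdh5 had 1.92 normalized counts in control replicate 1 and none elsewhere. Tek had 1.02 to 7.69 and Emcn 3.84 to 7.06 normalized counts. Kdr, the main receptor for vascular endothelial growth factor, had 1.01 in control replicate 2 and none elsewhere. The most abundant genes were Esm1 (-0.58 ± 0.19), the receptor gene Flt1 (-0.22 ± 0.20) and Egfl7 (-0.04 ± 0.18), none of which passed. The list summed to 17607 and 20411 normalized counts in resistant and 32502 and 21839 in control libraries. Most of this was Esm1, at 14401 and 16524 in resistant and 28248.5 and 18869 in control libraries. 18 of the 30 genes were under 10 in each library. In bulk RNA, fewer cells of a type and less RNA per cell cannot be told apart.

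**Figure D4:**
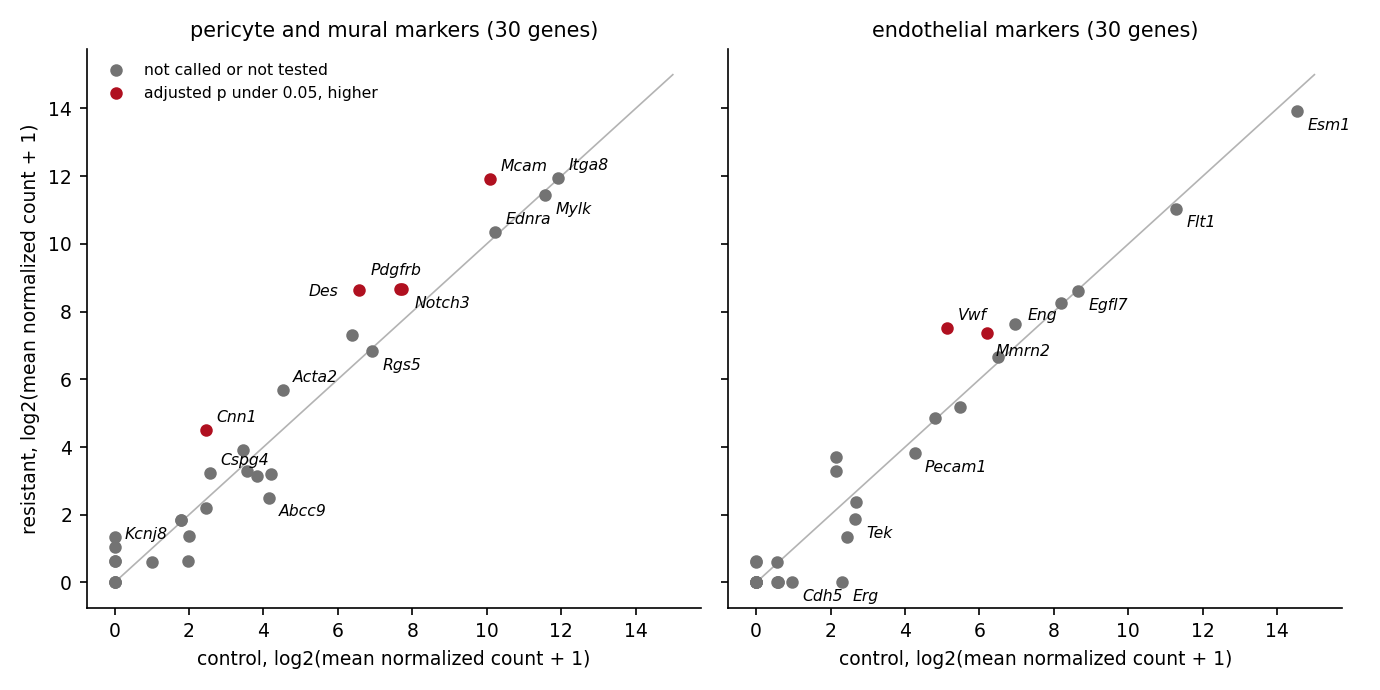
Log2(mean normalized count + 1) in control (horizontal) and resistant cells (vertical) for 30 pericyte and mural markers (left) and 30 endothelial markers (right), 1 point per gene, with the line of equal values. Red points were called higher. Rgs5, Itga8 and Mylk lie near the line while Mcam and Des lie above it, and Cdh5 and Kcnj8 sit in the lower left corner.

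Markers of other cells gave no common direction. Of 11 tested fibroblast markers, 3 fell and 8 did not pass, with a median of -0.30. The proteoglycan gene Dcn stood at 163 and 143 normalized counts in resistant libraries and at 763 and 483 in controls (-1.99 ± 0.24, limma adjusted p = 0.00343), while Lum and Dpt were at or near 0. The surface antigen gene Ly6a fell (-3.43 ± 0.42), and so did the matrix gene Postn (-1.48 ± 0.29), which was not called without resistant replicate 1 (-1.30) or 2 (-1.66). The most abundant of the list were Pdgfra, described above, Col6a1 (0.06 ± 0.14) and Pi16 (0.56 ± 0.26), which did not pass. Collagen gene Col1a2 had 76.7 normalized counts in control replicate 2 and 0.961 to 1.07 in the other 3 libraries. The thymocyte antigen gene Thy1 had 10.1 there and none elsewhere, and Col3a1 had 13.1 there and at most 1.02 elsewhere. In that library 8 of the 10 vessel and PDGF genes were lower than in control replicate 1, as were 53.1% of all tested genes. The list summed to 17404 and 20493 normalized counts in resistant and 21071 and 15784 in control libraries, mostly from Pdgfra and Col6a1. The part of these markers in the differences of the 10 genes was not tested.

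Platelets also carry von Willebrand factor. Of their defining genes, Pf4 had no read in any library, whereas Itga2b had 231 to 292 normalized counts. Of 4 tested platelet and megakaryocyte markers, 1 rose, the integrin subunit gene Itgb3 (2026 ± 275 against 962 ± 355 normalized counts, 1.12 ± 0.24, limma adjusted p = 0.0295), which was not called without resistant replicate 2 (0.98). Without control replicate 2 its difference was 0.73, still called. Itga2b was not called (0.25 ± 0.18). This list summed to 2839 and 3496 normalized counts in resistant and 2843 and 1698 in control libraries, mostly from Itgb3 and Selp. Of 3 tested leukocyte markers, 1 rose, the lysosomal gene Cd68 (1.18 ± 0.27), which was not called without resistant replicate 1 (1.14) or 2 (1.22). Leaving out control replicate 1 gave 0.69, and leaving out control replicate 2 gave 1.67. The leukocyte list summed to 11000 and 10428 normalized counts in resistant and 4057 and 6798 in control libraries. Cd68 gave 3227 of the 4057 in control replicate 1, and S100a8, a neutrophil gene, 800.2. Of 7 tested Schwann cell markers, 1 fell, the cadherin gene Cdh19 (-2.71 ± 0.21), while Sox10 had 0 to 3.22 normalized counts. The nerve growth factor receptor gene Ngfr (0.28 ± 0.12) and the myelin gene Mbp (0.31 ± 0.10) did not pass.

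The remaining marker lists were smaller or were split. Of 6 tested skeletal muscle markers, 3 rose: Des, the slow troponin gene Tnni1 (3.81 ± 0.24) and the fast troponin gene Tnnt3 (1.68 ± 0.26). Tnnt3 was not called without resistant replicate 1 (1.65) or 2 (1.71). The muscle regulators Myod1 and Myog had no read. Of 13 tested epithelial and mammary markers, 3 rose, led by the keratin gene Krt19 (2.97 ± 0.25), and 4 fell, led by the claudin gene Cldn3 (-3.96 ± 0.41, or -2.36 with a pseudocount of 10), with a median of -0.03. The adipocyte and red cell lists had 1 tested gene each, Fabp4 (1.48 ± 0.54) and Klf1 (-0.10 ± 0.45), neither of which passed.

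Genes that work with the pericyte and endothelial genes were read from lists as well. Abcc9 pairs with the channel pore encoded by Kcnj8, which is nearly absent as given above, or with that of Kcnj11, which had no read. The related subunit gene Abcc8 had 5.10 and 5.36 normalized counts in resistant and 16.3 and 14.1 in control libraries and did not pass (-1.38 ± 0.45). Of 6 tested small Rgs genes, 1 fell, namely Rgs20, from 446 ± 161 to 133 ± 2.61 normalized counts (-1.69 ± 0.26, limma adjusted p = 0.00929). The call of Rgs20 ended in 1 alternative fit that kept all libraries. Rgs19 (0.06 ± 0.12), Rgs2 (0.12 ± 0.16) and Rgs16 (-0.59 ± 0.23), the most abundant, did not pass.

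Of 11 tested Mcam partners and laminin genes, Mcam and Ezr rose and 9 did not pass. Ezr encodes ezrin, which links membrane proteins to actin (0.60 ± 0.11), and was not called without resistant replicate 1 (0.66) or 2 (0.53). The galectin gene Lgals1 (0.30 ± 0.17) and the laminin chain genes Lama5 (0.29 ± 0.17) and Lamb1 (-0.29 ± 0.14), the most abundant, did not pass. Of 8 tested adhesion genes related to Mcam or Pecam1, the neural adhesion gene L1cam rose, at 2861 ± 231 normalized counts against 763 ± 17.9 in controls (1.90 ± 0.12, limma adjusted p = 0.000343). Icam1, which leukocytes bind, fell (-1.47 ± 0.23) but was not called without resistant replicate 1 (-1.22).

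Of 12 tested genes related to Cspg4, the plasminogen activator gene Plat rose (0.65 ± 0.14) and the scaffold gene Mpdz fell (-0.48 ± 0.10). Of 9 tested genes of Vwf and its storage granules, Vwf rose and the granule biogenesis gene Hps6 fell (-0.63 ± 0.15). Without resistant replicate 1, Plat (0.76), Mpdz (-0.45) and Hps6 (-0.55) were not called, nor were they without resistant replicate 2 (0.54, -0.51 and -0.71). The integrin genes Itga3 (-0.23 ± 0.14) and Itgb1 (0.08 ± 0.12), partners of Cspg4, did not pass. Rab3d (0.16 ± 0.13), of granule release, did not pass either. Selp, the adhesion receptor stored with von Willebrand factor, had 682 and 945 normalized counts in resistant and 1366 and 704 in control libraries, and the groups overlapped.

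Of 22 tested vascular growth factor and guidance genes, 1 rose, 1 fell and 20 did not pass, with a median of 0.01. These shares are near those of all tested genes (5.32% called higher and 4.73% lower). Placental growth factor, Pgf, which binds Flt1, rose from 2036 ± 191 to 3128 ± 187 normalized counts (0.62 ± 0.12, limma adjusted p = 0.0208), but was not called without resistant replicate 1 (0.68) or 2 (0.56). The lymphatic growth factor gene Vegfc fell from 1228 ± 197 to 546 ± 75.2 (-1.16 ± 0.17, limma adjusted p = 0.00742). Its call ended in 1 alternative fit that kept all libraries. The most abundant, the receptor gene Nrp2 (-0.05 ± 0.14), Sema3f (0.16 ± 0.17) and Thbs1 (0.44 ± 0.13), did not pass.

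The genes beside each of the 10 on the chromosome were also compared. Within 1 Mb of Mcam, 37 tested genes had a median log2 difference of 0.17, with 2 called higher and 1 lower. The tested gene next to it, Cbl, lies 249 bases away and had 0.35 ± 0.12. For Vwf the median of 37 neighbours was 0.10, with 1 called in each direction. For Pdgfrb the median of 24 neighbours was 0.07, with 1 called higher and 4 lower. The gene called higher is Camk2a, a calcium-dependent kinase gene and the first tested gene on one side of Pdgfrb (2.00 ± 0.29, limma adjusted p = 0.00736). Csf1r, a neighbour of Pdgfrb on the chromosome, had 3.06 to 8.07 normalized counts and was not tested.

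For Pdgfb the median of 45 neighbours was 0.25, with 9 called higher and 1 lower. Its nearest tested neighbours Cbx7 (0.02 ± 0.12) and Rpl3 (0.38 ± 0.26) were not called. Among the first tested genes on either side of the other genes, Odf3l1 beside Cspg4 (1.12 ± 0.27), Fam20c beside Pdgfa (1.32 ± 0.26) and Cmas beside Abcc9 (0.43 ± 0.11) were higher, and Srd5a3, 942056 bases from Pdgfra, was lower (-0.57 ± 0.12). The 7 neighbours of Rgs5 had a median of -0.10, the 32 of Pecam1 had -0.03 and the 12 of Abcc9 had 0.32.

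The genes most like each called gene over the 4 libraries were found by distance between log2 values centred on each gene's mean, among 10541 genes whose mean reached 100 normalized counts. Closest to Mcam was Col6a3, a collagen VI chain gene, at 8981 and 10965 normalized counts in resistant and 3380 and 2591 in control libraries, with a distance of 0.10 on the log2 scale. Grap (0.14) and Sardh (0.18) followed. Vwf was closest to the exchange factor gene Cyth4 (0.16), the transporter gene Abcc3 (0.17) and Add2 (0.34). Pdgfrb was closest to Kifc2 (0.08), the mitochondrial gene mt-Nd5 (0.08) and Chadl (0.09), and Pdgfb to Reep6 (0.07), Zan (0.07) and Rasgef1a (0.12). 4 libraries give too few points to separate such patterns, so these distances are descriptions.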

How the data were processed

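Per the submitters' processing notes, the authors used STAR, DESeq2 and the mm10 build, with versions not listed. The authors deposited log2 values per gene and library. Undoing the log2 scale and subtracting the added 1 gave values that were whole multiples of 1 unit in each library (100% of values, within 0.01 reads), so they are reads over a size factor, and the reads were recovered. Columns were matched by sample title. Identifiers without version matched GENCODE M21 (GRCm38) symbols for 55144 of 55385 genes. Genes whose mean reached 10 normalized counts entered a fit by limma 3.58.1 (R 4.3.3, eBayes with trend, Benjamini-Hochberg adjustment). Its pseudocount of 1 is the deposited one and understates changes of low genes. The procedure was also run on simulated reads that had the same spread for every gene and library. The control pair here varied more than the resistant pair, so that run does not show how reliable these calls are. Kilobases are the union of annotated exons. Read-count intervals are 95% exact binomial and cover counting error only.

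The 10 genes, the 20 lists and the tests were chosen with earlier results of these data known. Genes named are the 10, the called genes of each list (up to 6) and its 3 most abundant, the nearest neighbours, and the 3 nearest patterns. Defining markers, 6330403L08Rik, genes with reads mainly in control replicate 2, Abcc8 and Csf1r were named after their values were seen. Some genes that the rule selects are not reported here. Alternatives were 2 pseudocounts, 2 filters, 2 scalings, robust moderation, limma voom on recovered reads, a replicate block and leaving out each library. With 1 library left out, the lone library of its group is assumed to vary like the other group.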

Additional observations from a re-analysis of the deposited data

How the results depend on the processing

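The 4 genes called higher (Mcam, Vwf, Pdgfrb and Pdgfb) stayed at 4 under both pseudocounts, the stricter filter, both scalings, robust moderation and voom. Without a filter on low values, which raises the number of tested genes to 26782, 1 was called (Mcam), and over all genes 126 were called higher and 185 lower, against 758 and 674. Leaving out 1 library gave 2 to 5 of the 10 genes called higher and 0 to 2 called lower, and 146 to 2074 genes higher and 234 to 1993 lower over all genes. The spread then comes from 1 group, and the control pair varied more. Without 1 library the log2 difference ran from -0.16 to 0.40 for Pdgfra (-0.01 without resistant replicate 2), from -0.35 to 0.0797 for Pdgfa and from -0.35 to 0.25 for Rgs5, with changes of sign. Of 35 other called list genes, 19 calls ended without resistant replicate 1, 18 without resistant replicate 2 and 26 with low genes included, and 13 were kept in each fit without 1 library. The labels of same-numbered libraries share only a number. Their deviations from the group means were negatively correlated over the tested genes (-0.357), so they did not vary together as a pair. Among the 10 genes, control replicate 1 exceeded control replicate 2 for 8, and resistant replicate 2 exceeded resistant replicate 1 for 7. With the replicate block 628 genes were higher and 585 lower, 4 of the 10 genes were higher, and among the other called list genes the calls of Hps6 and Mpdz ended. A crossed replicate block, added after seeing the data, gave 2402 higher and 2182 lower, with 4 of the 10 genes higher and 1 lower. Genes under 10 normalized counts, here Cspg4, are limited by depth.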
